A study of Mus musculus with 8 samples.

Results

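Complement and coagulation factors were followed in the liver of obese diabetic mice fed a control diet or the same diet with persimmon peel (PP) extract. These are plasma proteins of 2 protease cascades, most of which hepatocytes make and secrete: 17 genes of the complement system and 23 genes of coagulation, its inhibitors and fibrinolysis, 40 genes in all. Each gene was read from the probe sets (groups of short oligonucleotides on the array that detect 1 transcript) whose platform annotation gave that gene as the only symbol, and where a gene had several, the probe set with the highest mean over the 8 arrays was used. By this rule 36 of the 40 genes had a probe set, 14 of 17 for complement and 22 of 23 for coagulation, out of 18193 genes measured. No probe set was matched to C3, Cfd and Cpb2, and C4b was present only on a probe set shared with another symbol, so these 4 genes were not analysed here. The spread between mice and the diet difference were then described for the 36 genes and set beside the same values for all genes.

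The mice were male KK-Ay, a strain with obesity-induced type 2 diabetes from excessive eating and its genetic background, 14 weeks old at sampling. The control diet group (CD) ate AIN-93G and the PP extract diet group (PD) ate AIN-93G with 1 g/kg of PP extract for 8 weeks, so that the strain, the sex, the age and the base diet were common to both groups. Whole liver was taken after a short fast, and 4 livers a diet were measured on 1 expression array each. The methods state that the 4 mice of each diet were picked from a larger cohort because their plasma total ketone bodies lay near the group average, which may narrow the spread between mice. Values are on the log2 scale as deposited, so a difference of 1 is a doubling, and each log2 value applies to its own probe set. In bulk liver, fewer cells of a type and less RNA per cell cannot be told apart.

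Complement is a cascade of serum proteases. Mannose-binding lectins with their proteases, or the C1 complex, start it on a microbial surface, C2 and factor B form the convertases that cleave C3, and C6, C8 and C9 take part in the pore that ends it. Coagulation ends in fibrin: vitamin K-dependent proteases activate one another up to thrombin (from F2), which turns fibrinogen into fibrin, while antithrombin (Serpinc1), protein C and protein S restrain it and plasmin (from Plg) dissolves the clot. Fibrinogen and factor B are known as acute phase proteins, whose synthesis in the liver rises in inflammation.

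The array values fitted liver. Albumin (Alb) lay between 14.68 and 14.76 in the 8 mice, beside array maxima of 14.99 to 15.02. Of 6 adipocyte markers, Adipoq, Lep and Retn had group means of 6.21 to 6.94, below the array median of 7.13, Cidec had 6.89 in CD and 7.27 in PD, and Fabp4 (9.20 and 9.37) and Pck1 (13.24 and 13.16), which are not made by adipocytes alone, lay above it. Correlations between arrays were 0.991 to 0.996, and the median deviation of all genes from their 8-mouse mean was between -0.02 and 0.01 in each mouse. All 36 complement and coagulation genes lay above the array median, with group means of 9.09 to 14.13. CD replicate 4 stood apart in its acute phase genes, with serum amyloid A (Saa1) at 14.33 against 10.16 to 12.15 in the other 7 mice. Counts or medians for most gene groups are therefore also given without it, as values added after the data were seen. The diet difference took the other sign without this mouse for 7 of 36 members, C8a, C8b, F13b, F10, Klkb1, Kng1 and Plg.

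No complement or coagulation gene was called different between the diets. The rank product test, which orders all probe sets by fold change in each of the 16 PD to CD pairs, called 0 members higher and 0 lower in PD at a false discovery rate (FDR) under 0.1, against 0.28% of all genes (0.213% of probe sets) called higher and 0.357% of genes (0.258% of probe sets) called lower. The lowest FDR among the members was 0.519, for C2. In limma, 1 of 36 members, the pore protein C9, had an unadjusted p under 0.05, against 4.24% of all genes. The lowest limma adjusted p among the members was 0.998. This was also the lowest over all 18193 genes, of which limma called 0 at an adjusted p under 0.1. The CD and PD values overlapped for 36 of 36 members, where 1.03% of all genes had every PD mouse below every CD mouse and 1.12% every PD mouse above.

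The intervals of the diet difference hold gene by gene, and they did not set the members apart from all genes. The 95% interval of the diet difference by limma lay within a 1.5-fold change in either direction for 36 of 36 members, and within a 1.2-fold change for 28 of 36, beside 98.4% and 83.7% of all genes. The 8 members whose interval reached beyond 1.2-fold were Masp1, C2, C8a, C8b, C9, Serping1, F11 and Pros1. These intervals rest on 4 mice a diet and describe RNA in the liver, not protein in plasma.

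**Figure D1:**
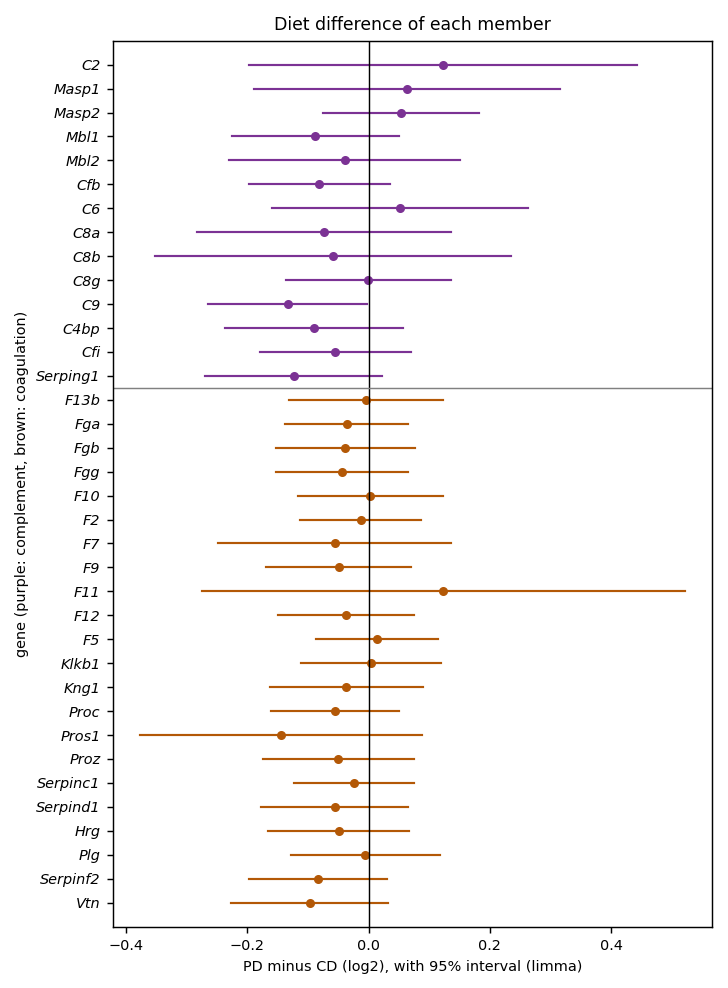
The difference of PD minus CD (log2, horizontal axis) is drawn for the 36 genes as a point with its 95% interval from limma, complement genes in purple and coagulation genes in brown, 4 mice a diet. All intervals reach 0 except that of C9, whose upper end lies just under it, and F11 has the widest interval, from -0.28 to 0.52.

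The direction of the small differences was uneven. The mean was lower in PD than in CD for 28 of 36 members, 10 of 14 for complement and 18 of 22 for coagulation, where 53.5% of all genes had a lower mean in PD. The median difference was -0.06 for complement and -0.04 for coagulation, beside -0.01 for all genes. Without CD replicate 4, the median for complement became -0.003 with 8 of 14 genes lower, and that for coagulation became -0.02 with 17 of 22 lower. Without PD replicate 4 the medians were -0.03 and -0.02, with 10 of 14 and 14 of 22 genes lower, and without CD replicate 2 they were -0.09 and -0.06. No test was made over the members, which share the same 8 livers.

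Among the proteins that start complement, 3 of 5 had a higher mean in PD, with a median difference of 0.05, or 0.08 without CD replicate 4. C2, which is cleaved to form the classical and lectin convertase, had values of 9.75, 9.74, 9.88 and 10.44 in CD mice 1 to 4 and 10.04, 10.27, 10.12 and 9.87 in PD mice 1 to 4. The 3 other CD mice were in the lower part of the range and CD replicate 4 was the highest of all 8. C2 thus differed by 0.12 (SE 0.145, 95% interval -0.20 to 0.44). Without CD replicate 4 the difference was 0.29, and C2 was then the member with an unadjusted limma p under 0.05, though its limma p adjusted over all probe sets was 1. The remaining probe sets for C2 gave differences of -0.02 and 0.06, so their signs were not the same, and CD replicate 4 was the highest mouse on each of the 3.

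Masp1, a protease bound to mannose-binding lectin, read 10.91, 10.50, 10.72 and 10.78 in CD and 10.67, 11.10, 10.83 and 10.58 in PD. Its lowest mouse was a CD mouse and its highest a PD mouse, and the difference of 0.06 (SE 0.114) was well inside the within-diet SD of 0.203. Masp2, the protease of that complex that cleaves C4 and C2, had 10.29, 10.07, 10.24 and 10.32 in CD and 10.33, 10.26, 10.23 and 10.31 in PD, and its second probe set went the other way (-0.04 against 0.05). The remaining probe sets for Masp1 gave differences of 0.03 to 0.07 and smaller within-diet SDs, of 0.07 to 0.13. None of these had PD replicate 2 as its highest mouse, so the spread and the mouse order of Masp1 hold for 1 probe set. The lectins Mbl1 and Mbl2, which bind sugars on microbes, differed by -0.09 and -0.04.

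Factor B (Cfb), which forms the alternative pathway convertase, was the only amplification protein with a probe set. Its values were 12.06, 12.04, 12.16 and 12.19 in CD and 12.03, 12.10, 12.04 and 11.95 in PD. The PD values overlapped the lower CD values, and the difference was -0.08 (SE 0.0524, 95% interval -0.20 to 0.03). C2 and Cfb lie next to each other in the genome, and their within-diet SDs were 0.263 and 0.0676.

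Of the 5 pore proteins, 4 had a lower mean in PD, and 2 of 5 without CD replicate 4, when only C9 and C8g stayed lower. C9, which polymerises into the pore, had 13.49, 13.53, 13.56 and 13.66 in CD and 13.48, 13.41, 13.52 and 13.30 in PD. The groups overlapped only through CD replicate 1 and PD replicate 3. The difference was -0.13 (SE 0.0593, limma adjusted p = 0.998), and without CD replicate 4 it was -0.10 with an unadjusted limma p above 0.05. C8b, a chain of C8, gave 10.80, 10.46, 10.50 and 11.09 in CD and 10.57, 10.91, 10.59 and 10.55 in PD, a scatter within each diet (SD 0.239) beside which the difference of -0.06, or 0.07 without CD replicate 4, was small. C8a differed by -0.07, and by 0.02 without CD replicate 4, while C8g and C6 differed by -0.001 and 0.05 with all mice.

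The complement regulators were lower in PD on average for 3 of 3, with a median difference of -0.09, or -0.03 without CD replicate 4. C1 inhibitor (Serping1), which blocks C1, the lectin proteases and the contact proteases, had 12.88, 12.83, 12.91 and 13.14 in CD and 12.84, 12.78, 12.84 and 12.80 in PD. CD replicate 4 lay above all others, and the difference of -0.12 (SE 0.0658, 95% interval -0.27 to 0.02) became -0.06 without it. C4b-binding protein (C4bp) had 12.53, 12.50, 12.55 and 12.78 in CD and 12.56, 12.50, 12.53 and 12.41 in PD, and its difference of -0.09 became -0.03 without CD replicate 4. Factor I (Cfi), the protease that inactivates C3b and C4b, differed by -0.06.

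The fibrinogen genes encode the 3 chains of 1 protein, and Fgg, Fga and Fgb are next to each other on chromosome 3. Interleukin 6 is known to raise all of them in the acute phase through elements with the core CTGGGA. The 250 bases before each gene start are shown because the chains are compared mouse by mouse below. They are from RefSeq on GRCm38.p6, 5′ to 3′ on the strand of the gene, with the letters CTGGGA in capitals.

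Fga: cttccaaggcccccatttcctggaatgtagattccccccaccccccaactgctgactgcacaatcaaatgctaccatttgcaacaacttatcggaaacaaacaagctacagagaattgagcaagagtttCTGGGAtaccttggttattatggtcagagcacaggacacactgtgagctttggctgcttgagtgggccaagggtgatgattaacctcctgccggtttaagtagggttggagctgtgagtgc
Fgb: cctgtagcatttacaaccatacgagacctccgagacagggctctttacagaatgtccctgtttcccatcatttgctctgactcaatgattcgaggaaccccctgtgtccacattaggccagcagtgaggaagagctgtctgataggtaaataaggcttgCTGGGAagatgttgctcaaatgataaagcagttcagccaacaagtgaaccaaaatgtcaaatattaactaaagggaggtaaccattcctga
Fgg: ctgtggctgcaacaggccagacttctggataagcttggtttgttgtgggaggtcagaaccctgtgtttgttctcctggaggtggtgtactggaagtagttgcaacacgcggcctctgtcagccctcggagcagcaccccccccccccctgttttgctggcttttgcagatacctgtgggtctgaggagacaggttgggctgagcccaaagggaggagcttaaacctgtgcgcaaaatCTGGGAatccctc

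The window of Fga is chr3:83025903-83026152 on the plus strand, that of Fgb is chr3:83049864-83050113 on the minus strand, that of Fgg is chr3:83007474-83007723 on the plus strand. Each held CTGGGA once when both strands were searched, beginning 121 bases before the start of Fga, 91 before that of Fgb and 13 before that of Fgg. The same 6 letters were in 27.0% of the 32851 promoters searched. Of the 28 member genes with a promoter among these, 12 held the letters in at least 1 promoter. That count is by gene and the share is by promoter, so they are not directly comparable. TTGCNNAA, the letters of a C/EBP site, was found for Fga and Fgb and in 9.56% of all promoters. GTTAAT, letters of a site for hepatocyte nuclear factor 1, was found for Fga and Fgb and in 6.43%. Counted by gene, 7 and 8 of the 28 member genes held these letters. A match describes the letters and not a bound site.

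The chains differed little between the diets. Fga had 13.88, 13.83, 13.93 and 13.84 in CD and 13.88, 13.88, 13.81 and 13.78 in PD, a difference of -0.04 (SE 0.0459). Fgb had 14.08, 13.90, 14.05 and 13.99 in CD and 14.03, 13.99, 13.95 and 13.91 in PD, and Fgg had 14.18, 14.04, 14.20 and 14.12 in CD and 14.13, 14.12, 14.07 and 14.03 in PD. Both also differed by -0.04, and their ranges overlapped throughout. CD replicate 4, with the highest Saa1, was in the middle for all of them, at -0.01, 0.002 and 0.01 from the mean of the other mice for Fga, Fgb and Fgg. Whether the fibrinogen probe sets were near the upper end of their range was not tested.

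Although the differences between mice were small, the chains moved together. Over the 8 mice, Fgb and Fgg were related with Pearson's r of 0.97 (exact permutation p = 0.000595, adjusted p = 0.00484) and Spearman's rho of 0.93 (exact permutation p = 0.00223, adjusted p = 0.0112). Fga and Fgg had r of 0.92 (exact permutation p = 0.000967, adjusted p = 0.00484) and rho of 0.95 (exact permutation p = 0.00114, adjusted p = 0.0112), and Fga and Fgb had r of 0.84 (exact permutation p = 0.011, adjusted p = 0.0275) and rho of 0.83 (exact permutation p = 0.0154, adjusted p = 0.0384). Without the 2 mice farthest from the median of the first gene, r was 0.97, 0.83 and 0.78, and within diets it was 0.97, 0.91 and 0.82. After quantile normalization of the arrays, r for Fgb and Fgg still passed, whereas those for Fga with Fgb (0.77) and Fga with Fgg (0.72) had an exact permutation p adjusted to 0.116. These were 3 of 10 relations computed, all two-sided and adjusted over the 10 by Benjamini-Hochberg. No relation of a chain with a member outside fibrinogen was computed, so the values do not show that moving together is particular to the chains. CD replicate 2 and PD replicate 4, low for the chains, were also low over the coagulation genes, with mean deviations of -0.04 and -0.10.

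**Figure D2:**
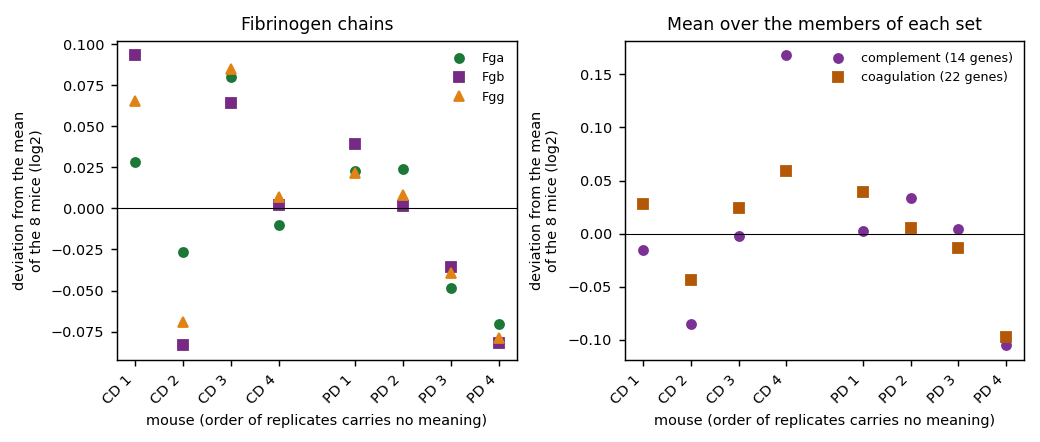
Deviations from the 8-mouse mean (log2) are plotted for each mouse, on the left for the 3 fibrinogen chains and on the right for the mean over the 14 complement and the 22 coagulation genes. The chains keep close to each other in each mouse, with CD 2 and PD 4 low, while complement lies at 0.17 and coagulation at 0.06 in CD 4.

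The chains of C8 gave no such relation. C8a and C8b, adjacent genes, had r of 0.72 (exact permutation p = 0.0413, adjusted p = 0.0825) and rho of 0.45, and r was -0.47 without the 2 mice farthest from the median of C8a, so the value rests on CD replicate 4 and PD replicate 2. For C8a with C8g r was -0.41 and for C8b with C8g it was -0.22, with adjusted exact permutation p of 0.505 and 0.6. Saa1 and Cfb had r of 0.83 (exact permutation p = 0.00558, adjusted p = 0.0186) and rho of 0.86 (exact permutation p = 0.0107, adjusted p = 0.0357), with r of 0.77 without the 2 farthest mice. After quantile normalization r was 0.80 with an adjusted exact permutation p of 0.0857, and without CD replicate 4 it was 0.76 with an adjusted exact permutation p of 0.0923. Saa1 with Fga, Fgb and Fgg had r of 0.29, 0.30 and 0.39, with adjusted exact permutation p of 0.557, 0.557 and 0.505. Without CD replicate 4 and PD replicate 2, the 2 mice farthest from the median of Saa1, r was 0.81, 0.74 and 0.85 for the 3 chains.

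The remaining fibrin gene, F13b, the carrier chain of the fibrin-crosslinking factor XIII, differed by -0.004, and by 0.03 without CD replicate 4. Of the vitamin K-dependent proteases, prothrombin (F2) differed by -0.01, F7 by -0.06, F9 by -0.05 and F10 by 0.003. The mean was lower in PD for 3 of 4, and for 4 of 4 without CD replicate 4. Over the alternatives described below, the difference ran from -0.03 to 0.003 for F2 and from -0.10 to 0.04 for F7. That of F10 ran from -0.03 to 0.04 and that of F9 from -0.08 to -0.02, so only F9 kept its sign. F2 was among the steadiest members, with a within-diet SD of 0.0456, whereas F7 had 0.147, with PD replicate 4 at 10.10 below the 10.38 to 10.56 of the other mice. F7, F10 and Proz are neighbours in the genome, where F10 and Proz had within-diet SDs of 0.0725 and 0.0787.

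Factor XI (F11), a protease that activates factor IX, had the largest spread of the 36 members. It read 9.97, 9.82, 10.02 and 9.47 in CD and 10.10, 10.35, 9.94 and 9.40 in PD. The 2 lowest mice were CD replicate 4 and PD replicate 4, and the highest was PD replicate 2. The difference was 0.12 (SE 0.18, 95% interval -0.28 to 0.52), less than the within-diet SD of 0.332, and 0.01 without CD replicate 4. Without PD replicate 4, F11 was the only member with an unadjusted limma p under 0.05, at a difference of 0.30. Its genomic neighbour Klkb1, plasma prekallikrein, read 12.16, 12.04, 12.08 and 12.00 in CD and 12.06, 12.05, 12.16 and 12.02 in PD, with a within-diet SD of 0.0666 and a difference of 0.004.

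The cofactor F5, which binds the protease that forms thrombin, had 11.87, 11.90, 11.88 and 11.84 in CD and 11.97, 11.88, 11.83 and 11.86 in PD, a difference of 0.01. The contact proteins factor XII (F12) and kininogen (Kng1), the source of bradykinin, differed by -0.04 each, which became -0.02 and 0.01 without CD replicate 4. F11, F5 and Klkb1 were thus the 3 of these 5 genes with a higher mean in PD, and the median difference of the 5 was 0.004. Without CD replicate 4 Klkb1 was lower and Kng1 higher in PD, so 3 of 5 were again higher, with a median of 0.002.

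The anticoagulants were lower in PD on average for 5 of 5, with a median difference of -0.06, or -0.03 without CD replicate 4. Protein S (Pros1), the cofactor of activated protein C, had 9.07, 9.20, 9.11 and 9.54 in CD and 9.25, 9.02, 8.92 and 9.16 in PD. Apart from CD replicate 4 the diets shared one range, and the difference of -0.14 (SE 0.105, 95% interval -0.38 to 0.09) became -0.04 without that mouse. Antithrombin (Serpinc1), with the smallest within-diet SD of all 36 members at 0.044, differed by -0.02. Protein C (Proc), protein Z (Proz) and heparin cofactor II (Serpind1) differed by -0.06, -0.05 and -0.06, and PD replicate 4 was the lowest mouse for each.

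The fibrinolysis genes were lower in PD on average for 4 of 4, with a median of -0.07, and for 3 of 4 without CD replicate 4, with a median of -0.04. PD replicate 4 was the lowest mouse for Serpinf2, Hrg and Vtn. The mean deviation of these genes was -0.12 in PD replicate 4 and 0.11 in CD replicate 4, so both mice bear on the direction. Vitronectin (Vtn), which stabilises the plasminogen activator inhibitor and also binds the complement pore, had 13.54, 13.48, 13.56 and 13.70 in CD and 13.51, 13.50, 13.51 and 13.36 in PD. The difference of -0.10 (SE 0.0587, 95% interval -0.23 to 0.03) became -0.06 without CD replicate 4, and a second probe set gave -0.11 with all mice. The plasmin inhibitor Serpinf2 had 12.21, 12.10, 12.24 and 12.27 in CD and 12.15, 12.07, 12.18 and 12.07 in PD, a difference of -0.08 (SE 0.0516, 95% interval -0.20 to 0.03). Plasminogen (Plg) differed by -0.01, and by 0.02 without CD replicate 4, and the plasminogen-binding histidine-rich glycoprotein (Hrg) by -0.05.

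The genes differed in how much they scattered between mice of the same diet. The within-diet SD ranged from 0.044 for Serpinc1 to 0.332 for F11, and 14 of 36 members exceeded the median SD of all genes, 0.0845. After F11 came C2 (0.263), C8b (0.239), Masp1 (0.203) and Pros1 (0.184). The median SD was 0.102 over the complement genes and 0.0703 over the coagulation genes.

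Single mice stood apart across many of the genes. CD replicate 4 was the highest of the 8 mice for 19 of 36 members, 9 of complement and 10 of coagulation, where 13.2% of all genes had their highest value in that mouse. PD replicate 4 was the lowest for 16 of 36, against 10.1% of all genes, and CD replicate 2 was the lowest for 10 of 36, against 9.65%. In CD replicate 4, C2 lay 0.49 above the mean of the other 7 mice, C8b 0.46, Pros1 0.44, C8a 0.37, Serping1 0.30 and C4bp 0.27. F11 went the other way, 0.47 below the other mice, and the fibrinogen chains stayed at their mean.

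**Figure D3:**
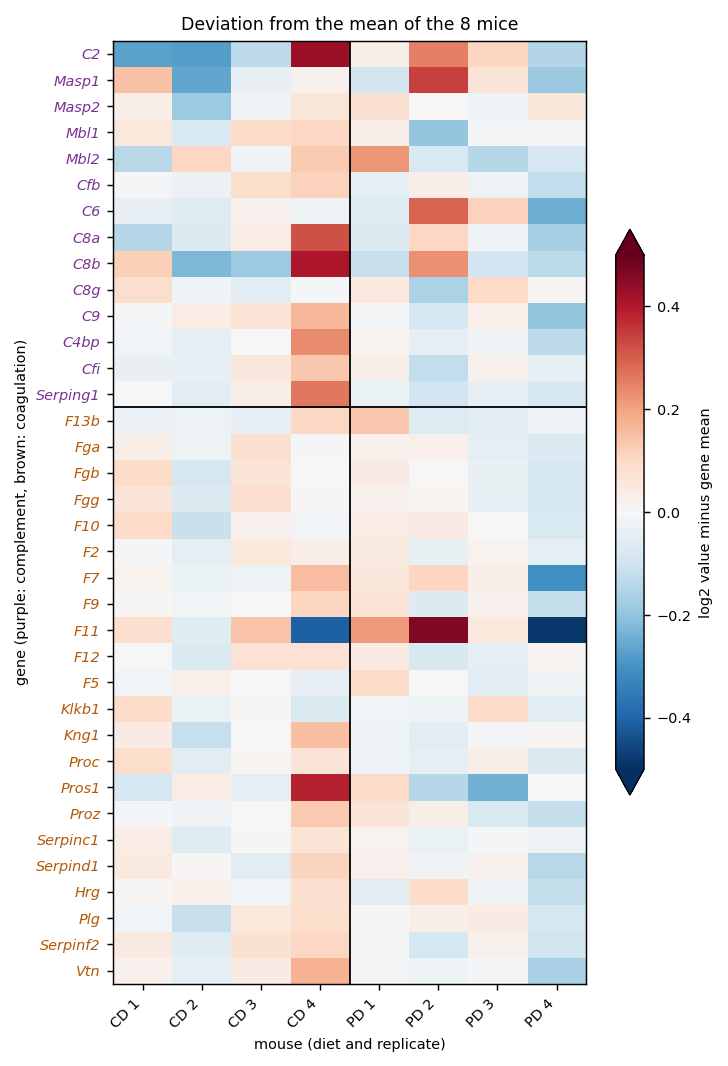
Each cell is the log2 value of 1 gene (row) in 1 mouse (column) minus the mean of that gene over the 8 mice, red above and blue below, with complement genes above the horizontal line and CD mice left of the vertical line. CD 4 is the highest mouse for 19 of the 36 genes and PD 4 the lowest for 16, while F11 is low in both.

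The mean over each set showed the same mice. For complement the mean deviation was -0.02, -0.09, -0.002 and 0.17 in CD mice 1 to 4 and 0.002, 0.03, 0.005 and -0.11 in PD mice 1 to 4. For coagulation it was 0.03, -0.04, 0.02 and 0.06 in CD and 0.04, 0.01, -0.01 and -0.10 in PD. The gap of complement over coagulation was thus 0.11 in CD replicate 4 and between -0.04 and 0.03 in the other 7 mice. Between the diets the gap differed by 0.001, with a higher value in PD.

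The acute phase and marker lists give the state of the same mice. Of 18 acute phase genes outside the 36 members, 16 were highest in CD replicate 4, with a mean deviation of 1.25 there, where the other 7 mice had -0.39 (CD replicate 2) to 0.20 (PD replicate 2) and PD replicate 4 had -0.31, and their summed level (log2 of the sum of linear values) was 16.40 to 17.49 in CD and 16.38 to 16.72 in PD. With all mice 18 of 18 had a lower mean in PD, with a median difference of -0.24, and the rank product called 3 of them, Saa1, Saa2 and Lcn2, lower. Without CD replicate 4 only 9 of 18 had a lower mean, the median was 0.004 and 0 were called lower. Lcn2 then differed by 0.41 (rank product FDR 0.0351). Its value in PD replicate 2 was 9.95, above the 7.57 to 9.05 of the other mice left. Saa1 and Saa2 then differed by -0.06 and 0.12, where they had differed by -0.87 and -1.14 with all mice. CD replicate 4 was set aside for its high acute phase values, so these shifts cannot decide whether the diet altered the genes. Saa1 had values of 11.88 ± 1.79 in CD and 11.01 ± 0.761 in PD (SD, n = 4 each), and since Saa1 and Saa2 are near-identical their probes may share transcripts. The hepatocyte markers were highest in CD replicate 4 for 1 of 8 genes and lowest there for 4 of 8, with a summed level of 16.77 to 16.87 in CD and 16.80 to 16.86 in PD. The Kupffer cell and macrophage markers were highest in CD replicate 4 for 2 of 8 and in CD replicate 3 for 4 of 8, with a summed level of 11.77 to 12.35 in CD and 12.08 to 12.16 in PD. Their mean deviation in CD replicate 4 was 0.19. In that mouse, 3 of 5 neutrophil, 3 of 6 platelet and 1 of 7 endothelial markers were highest. For stellate cell and fibroblast markers it was 0 of 9, and for adipocyte markers 0 of 6. The mean deviation there was 0.10 for neutrophil and -0.13 for stellate cell and fibroblast markers. Whether inflammation or a change in cell make-up had a part in the values of that mouse was not tested.

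**Figure D4:**
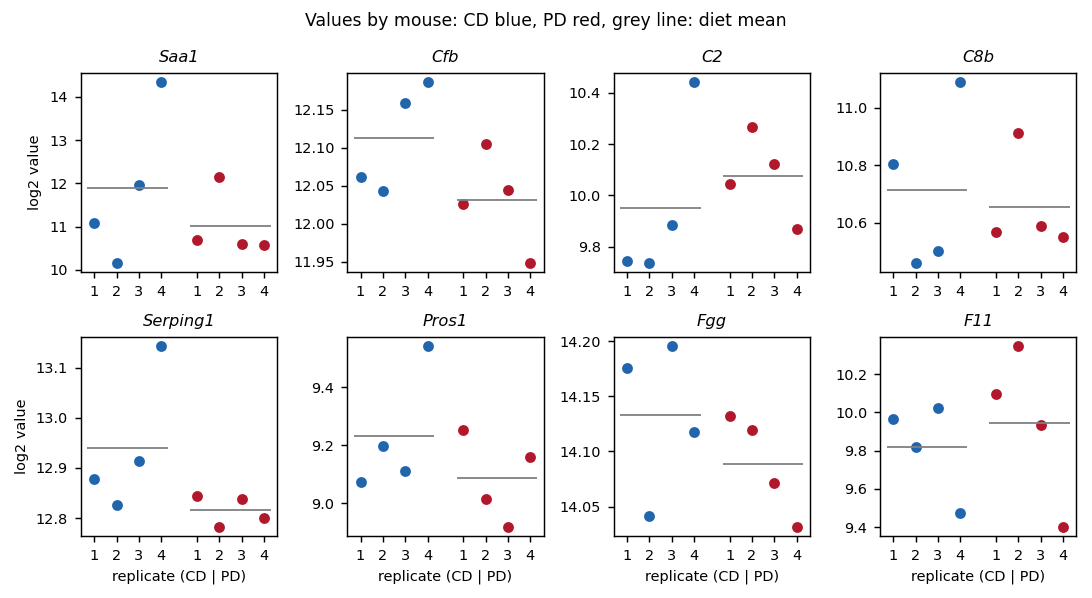
The log2 value of 8 genes is plotted for each mouse, CD in blue and PD in red, with a grey line at each diet mean and a separate vertical axis for each gene. CD replicate 4 is the highest mouse for Saa1, Cfb, C2, C8b, Serping1 and Pros1, in the middle for Fgg and next to the lowest for F11.

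The other genes of both pathways gave no call with all 8 mice. Of 21 other complement genes measured (C1q and C1r chains, receptors, membrane regulators and others), 12 had a higher and 9 a lower mean in PD, the rank product called 0, and 2 had an unadjusted limma p under 0.05. These were Hc, which encodes complement C5, with a difference of -0.21 (SE 0.0877, limma adjusted p = 0.998) that was -0.12 without CD replicate 4, its highest mouse, and C3ar1, the receptor for the C3a fragment, with -0.18 (SE 0.0685, limma adjusted p = 0.998), or -0.16 without that mouse. Of 23 other coagulation genes, 7 had a higher and 16 a lower mean in PD, and the rank product called 0. Without CD replicate 4, 13 of the 21 other complement genes and 10 of the 23 other coagulation genes had a higher mean in PD. Tissue factor (F3), which starts coagulation, was 6.88 ± 0.263 in CD and 7.21 ± 0.123 in PD (SD, n = 4 each), near the array median, a difference of 0.33 (SE 0.116, limma adjusted p = 0.998, unadjusted p under 0.05). Its rank product FDR was 0.1, at the threshold and not under it. Without CD replicate 4, left out after the data were seen, the difference was 0.39 (rank product FDR 0.0359). The low F3 value was that of CD replicate 1, at 6.49. The other CD mice had 6.93 to 7.06 and the PD mice 7.03 to 7.31.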

How the data were processed

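Liver RNA (TRIzol and RNeasy extraction, GeneChip 3′ IVT Express labelling) from 4 livers a diet was hybridised to Affymetrix mouse arrays, 1 for each mouse. The deposited values are log2 expression per probe set, summarised by the authors with the model-based expression index in R (2.7.2 in the submitters' processing notes). The sources used here give no normalization between arrays, and the files hold no counts or depth, so the number of arrays limits the precision. Labels do not name batches. After 64 control probe sets were left out, 45037 were tested. The platform annotation gave 34945 of them 1 gene symbol, 932 several and 9160 none.

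The rank product (1000 permutations, FDR under 0.1, as in the study's methods) was computed in Python 3.11.15 and called 0.213% of probe sets higher and 0.258% lower in PD. limma 3.58.1 in R 4.3.3 gave differences, SE, intervals and p-values adjusted by Benjamini-Hochberg over all probe sets. Both were also run on simulated data with independent noise in each probe set and known changes, all larger than the member differences. Those data held no shift shared by many genes of 1 mouse, so the run does not show how either test performs on these members. For genes, 1 probe set each was counted. Relations across mice were tested by exact permutation. The members, gene lists and tests were chosen with earlier results of these data known. Values in every mouse are given for members with an unadjusted limma p under 0.05, the 3 highest and 3 lowest differences of each set, the 4 largest SDs, fibrinogen and Cfb. Replicate numbers were not used to pair the mice in the main tests. Deviations of same-numbered CD and PD mice correlated at -0.06 to -0.0003, and those of differently numbered mice at -0.19 to 0.16. These correlations cannot show whether a number marks a shared cage or day. Alternatives covered normalization, centring, dim probe sets, choice of probe set, variance model, test, a replicate block and leaving out each mouse.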

Additional observations from a re-analysis of the deposited data

Results flagged for a closer look

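In 5 of 72 groups of 4 mice (36 genes in 2 diets), 1 mouse lay far from the other 3. Chance alone sets apart about 1 group in 20 when the groups are independent. These groups were not independent, since all 36 genes were read in the same mice. The number can therefore not be compared with that share. CD replicate 4 was high for F13b (12.00, others 11.86 to 11.87), for F9 (11.91, others 11.79 to 11.81) and for Proz (12.19, others 12.04 to 12.06). PD replicate 2 was high for C8b (10.91, others 10.55 to 10.59), and PD replicate 4 was low for Vtn (13.36, others 13.50 to 13.51). The mean of complement minus that of coagulation was also far from the others in CD replicate 4, at 0.11 against -0.04 to -0.03 in the other CD mice.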

How the results depend on the processing

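The rank product called 0 members in each of the alternatives run. Of 540 member differences recomputed under them, 36 took the other sign, in 16 of the 36 members, and the other 20 members kept their sign throughout. Most alternatives left the mice as they were or left out 1, which limits how far a mean can move. The number of members with an unadjusted limma p under 0.05, which was 1 (C9), was 0 with a replicate block, quantile normalization, arrays centred on their medians, the filter on dim probe sets, array weights and the methods' t-test, before and after Benjamini-Hochberg. Leaving out 1 mouse gave 0 to 2 such members: 2 without CD replicate 2 (Serping1 and Serpinf2), 0 without CD replicate 3 or PD replicate 2, and other genes in place of C9 without CD replicate 4 (C2) and PD replicate 4 (F11). With the replicate block the complement and coagulation medians stayed at -0.06 and -0.04. The block changed no other call, and the labels do not say that a number marks a shared cage or day.

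The gap of complement over coagulation between diets was -0.03 to 0.04 over all alternatives. After quantile normalization r fell to 0.77 for Fga with Fgb, 0.72 for Fga with Fgg and 0.80 for Saa1 with Cfb, each no longer past an adjusted p of 0.05. The cause was not tested. Leaving out 1 mouse gave r of 0.78 to 0.89 for Fga with Fgb, no longer past it without CD replicate 3, CD replicate 4, PD replicate 1 or PD replicate 4. For Saa1 with Cfb it gave 0.76 to 0.91, no longer past it without CD replicate 4 or PD replicate 1, and for C8a with C8b 0.30 to 0.87, past it only without CD replicate 1. With 7 mice the test has fewer orders to draw on. The planned relations of C3 and C4b with Saa1 were not run, since neither gene had a probe set by the rule.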
